A study of Homo sapiens with 17 samples.

Results

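Binding of FOXA1 and FOSL2 and the repressive marks H3K9me3 and H3K27me3 were examined at 10 matrix metalloproteinase genes: MMP1, MMP2, MMP3, MMP7, MMP8, MMP9, MMP10, MMP12, MMP13 and MMP14. The genes were taken by name from the 19974 protein-coding genes of GRCh38.p14 on chromosomes 1 to 22 and X. All peaks within each gene and 50 kb either side were taken. Neighbouring genes share parts of these windows, so the windows were merged into 5 stretches of 801 kb in all and each region was counted once. Of the members, 7 lie in the chromosome 11 cluster: MMP7 has a stretch of its own (102470508 to 102580747), and MMP8, MMP10, MMP1, MMP3, MMP12 and MMP13 share a stretch of 344 kb (102661796 to 103005732).

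Sites were mapped by ChIP-seq, the sequencing of DNA pulled down with an antibody, in A549 cells, a line established from a human lung carcinoma. Unmodified (WT) cells, untreated, were profiled for FOXA1, H3K9me3 and H3K27me3. A line with A-Fos integrated by the piggyBac transposon was profiled for FOXA1 and for FOSL2 (Fra2 antibody), untreated or with doxycycline at 1 µg/mL for 48 h to induce A-Fos, a dominant-negative Fos. Each of the 7 groups had 2 libraries, which the titles call biological replicates. Whether the A-Fos line is a clone, and which promoter drives A-Fos, is not given in the sources used here. No doxycycline-treated cells without A-Fos were analysed here, so A-Fos and doxycycline cannot be told apart. Peak lists hold no transcript levels, so neither the cell type nor the expression of any metalloproteinase could be checked.

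Matrix metalloproteinases are zinc-dependent proteases that cut collagens and other matrix proteins, cytokines and each other's inactive precursors. AP-1, a dimer of Jun and Fos family proteins such as FOSL2, is the classic activator of several of their promoters, where its binding element was among the first described. FOXA1 is a forkhead factor of lung and liver epithelium that can open closed chromatin. H3K27me3 is set by Polycomb complexes and H3K9me3 marks constitutive heterochromatin.

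The lists differed widely in length: 49448 and 80318 FOXA1 peaks in WT cells, 7633 and 13247 in untreated and 11112 and 15065 in doxycycline-treated A-Fos cells, and 45586 and 14842 FOSL2 peaks without and 1854 and 5274 with doxycycline. Read depth is not recorded in the lists, so a gene without a peak in a short list may lie below what that library could detect. Fold enrichments are those of the authors' peak caller. They are given beside the percentile of the peak within its own list, where 100 is the strongest.

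FOSL2 had many called sites around the metalloproteinase genes before induction, almost all of them in the longer of the lists. The first library without doxycycline had 26 FOSL2 peaks in the windows and the second 4, and each of the 4 overlapped a peak of the first. The 26 peaks came to 32.5 per Mb, against 18 per Mb in the same windows of all protein-coding genes, and the 4 came to 4.99 against 5.69 per Mb. The density above that of all genes was thus seen in 1 of the untreated libraries. A FOSL2 peak lay within 50 kb of 9 members in the first library, all but MMP8 (78.6% of all genes had one). Only MMP7, MMP13 and MMP2, 3 of 10, had one in the second (45.1% of all genes).

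**Figure D1:**
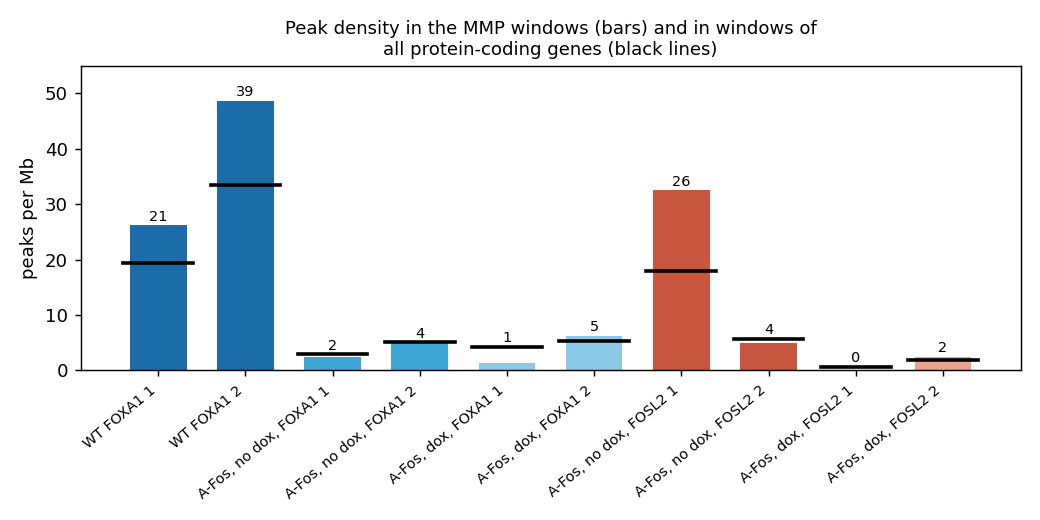
Peaks per Mb of the merged metalloproteinase windows in each of the 10 FOXA1 and FOSL2 lists (bars, with the number of peaks above) and in the merged windows of all protein-coding genes (black lines). Both WT FOXA1 lists (26.2 and 48.7 per Mb) and the first FOSL2 list without doxycycline (32.5 per Mb) stand above their lines, as do, by less, the second doxycycline lists of FOXA1 (6.24 against 5.31) and FOSL2 (2.5 against 1.85); the other 5 lists lie below.

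FOSL2 peaks lay over the ends of MMP7, MMP10, MMP3 and MMP13, in each case the end at the higher coordinate. The RefSeq promoter table places the start of transcription of MMP7, the matrilysin, and of MMP10, stromelysin 2, at this end, on the minus strand. In the first library without doxycycline the peak at MMP10 (chromosome 11, 102780461 to 102780799) had a fold enrichment of 13.3 (78.3 percentile), with its summit 13 bases from the end of the gene interval. The peak at MMP7 (102530596 to 102530878) had 6.87-fold (53.3 percentile) and a summit 50 bases from the end. That at MMP13, collagenase 3 (102955473 to 102955872), had 6.5-fold (50.6 percentile) and a summit 13 bases from the end. That at MMP3, stromelysin 1 (102843465 to 102843750), was the weakest, with 4.54-fold (30.7 percentile) and a summit 16 bases from the end. These 4 of 10 members compare with 8.91% of all genes that had a FOSL2 peak of this list within 1 kb of either end. None of the 4 was called in the second library without doxycycline, where no member had such a peak (2.10% of all genes), or in either library with it (0.145% and 0.401%).

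The bases before the starts of MMP7 and MMP10 are shown because FOSL2 peaks lay over them, and those of MMP8, neutrophil collagenase, because no FOSL2 peak lay within 50 kb of it. They are the 250 bases before each start from the RefSeq table of GRCh38.p14, all on the minus strand, at chr11:102530748-102530997 (MMP7), chr11:102780629-102780878 (MMP10) and chr11:102724955-102725204 (MMP8). Capitals mark matches on either strand. The word searched for AP-1 was TGANTCA, and that for the core of ETS sites was AGGAAG. For forkhead factors the main word was TGTTTAC, the variant with G as its sixth base was TGTTTGC, and the variant with A as its second base was TATTTAC.
MMP7: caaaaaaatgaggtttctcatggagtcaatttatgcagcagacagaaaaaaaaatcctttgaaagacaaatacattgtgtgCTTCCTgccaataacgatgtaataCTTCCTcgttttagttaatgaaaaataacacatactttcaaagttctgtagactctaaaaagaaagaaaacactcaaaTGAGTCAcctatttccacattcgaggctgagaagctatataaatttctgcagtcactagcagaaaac
MMP10: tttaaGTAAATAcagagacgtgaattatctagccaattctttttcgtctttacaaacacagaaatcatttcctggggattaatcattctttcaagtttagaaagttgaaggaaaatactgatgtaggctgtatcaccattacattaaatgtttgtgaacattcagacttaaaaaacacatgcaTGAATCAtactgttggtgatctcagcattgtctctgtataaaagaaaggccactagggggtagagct
MMP8: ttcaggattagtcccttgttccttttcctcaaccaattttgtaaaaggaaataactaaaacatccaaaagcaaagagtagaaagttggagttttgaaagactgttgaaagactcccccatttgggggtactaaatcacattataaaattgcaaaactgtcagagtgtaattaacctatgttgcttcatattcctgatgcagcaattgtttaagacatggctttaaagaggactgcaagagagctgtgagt
MMP7 holds TGAGTCA at -67 to -61 from the start and MMP10 holds TGAATCA at the same distance, and both matches lie inside the FOSL2 peak of their gene. The matches lay 114 and 77 bases from the FOSL2 summits of MMP7 and MMP10. MMP10 also holds a TATTTAC match at -245 to -239, and MMP7 holds an AGGAAG match at -169 to -164 and at -145 to -140. No motif searched was in the windows of MMP8 or of MMP14, the other member in the table (chromosome 14, plus strand). TGANTCA is in 6.57% of the 35116 RefSeq windows of this length, any of the 3 forkhead words in 8.27% and AGGAAG in 28.7%. The table held 4 of the 10 members and did not hold MMP1, MMP2, MMP3, MMP9, MMP12 or MMP13.

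The strongest FOSL2 sites of the family lay away from the gene ends. Both untreated libraries shared 4 regions. The region 40.5 kb beyond MMP13 (chromosome 11, 102996201 to 102996675) had 38.8-fold and 9.54-fold enrichment in the first and the second library (97.3 and 88.8 percentiles). The region 25.9 kb from MMP7 (102494175 to 102494653) had 26.3-fold and 10.1-fold (92.9 and 90.4 percentiles), and a region 21.4 kb from MMP7 on its other side (102552183 to 102552982) had 11.4-fold and 6.13-fold (73.6 and 70.7 percentiles). MMP2, a gelatinase, had one 5.98 kb from its lower end (chromosome 16, 55472201 to 55472852) with 23.3-fold and 5.89-fold (91 and 68 percentiles). All were stronger in the first library than in the second on the fold scale, and all stood in the upper part of both lists. A neighbouring MMP2 region (55471317 to 55471915) had 29.8-fold in the first library (94.6 percentile) and no call in the second.

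Sites called in the first library alone ranged from 2.03-fold to 29.8-fold. For MMP9, the other gelatinase, they lay 15 kb (9.07-fold), 25.2 kb (4.29-fold) and 36.2 kb (2.03-fold) below the gene and 35.5 kb above it inside SLC12A5 (9.65-fold). MMP1, interstitial collagenase, had one 4.28 kb away (4.97-fold), MMP3 one 7.79 kb away (10.4-fold) and MMP12, macrophage metalloelastase, one inside the gene (5.68-fold). MMP14, a membrane-type metalloproteinase that activates MMP2, had 3 sites, between 2.92-fold and 5.92-fold, of which 2 lay inside the neighbouring SLC7A7. Further sites lay 23, 33.5, 34.8 and 43.1 kb from MMP7 (7.82-fold, 7.82-fold, 4.97-fold and 12.1-fold). Others lay 35.8, 40.9 and 46 kb from MMP2 (6.16-fold, 7.25-fold and 7.37-fold).

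With doxycycline, few FOSL2 peaks were called near these genes. The libraries with doxycycline had 0 and 2 FOSL2 peaks in the windows, against 26 and 4 without it, or 1 ± 1.41 against 15 ± 15.6 (mean ± SD, n = 2 each; exact two-sided permutation p = 0.33, the smallest that 2 against 2 libraries allow). The groups did not overlap. As a share of the list, however, the counts were 0 and 0.379 per 1000 peaks with and 0.57 and 0.27 per 1000 without doxycycline, and these overlapped (exact two-sided permutation p = 0.667). The 4 regions shared by the untreated libraries had no call in either treated library. Of the 10191 such regions on all chromosomes 98.4% were lost in the same sense, so the metalloproteinase regions did what nearly all FOSL2 regions did. The 4 lay around MMP7, MMP13 and MMP2, 3 of 10 members, against 38.6% of all genes with a lost region within 50 kb. No region in the windows was called in all 4 libraries (0.0981% of the regions shared by the untreated libraries were). None was gained, meaning called in both treated libraries alone (46.3% of the 54 regions of both treated libraries were, and 0.115% of all genes had one within 50 kb).

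Both FOSL2 peaks under doxycycline were of low enrichment and lay at places with no untreated peak. They came from the second library, where MMP12, MMP13 and MMP2, 3 of 10 members, had a peak within 50 kb (16.5% of all genes). MMP12 and MMP13 were counted through the same peak. The first treated library had none (6.83% of all genes). One lay 28.4 kb below MMP13, between MMP12 and MMP13 (chromosome 11, 102914329 to 102914599), at 3.26-fold (29.1 percentile), and the other 30.5 kb below MMP2 (chromosome 16, 55448118 to 55448365) at 3.54-fold (53.2 percentile). With the lists cut to the 1854 strongest peaks each, the difference in mean peak number shrank from -14 to -1.5, and without the first library lacking doxycycline it was -3.

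**Figure D2:**
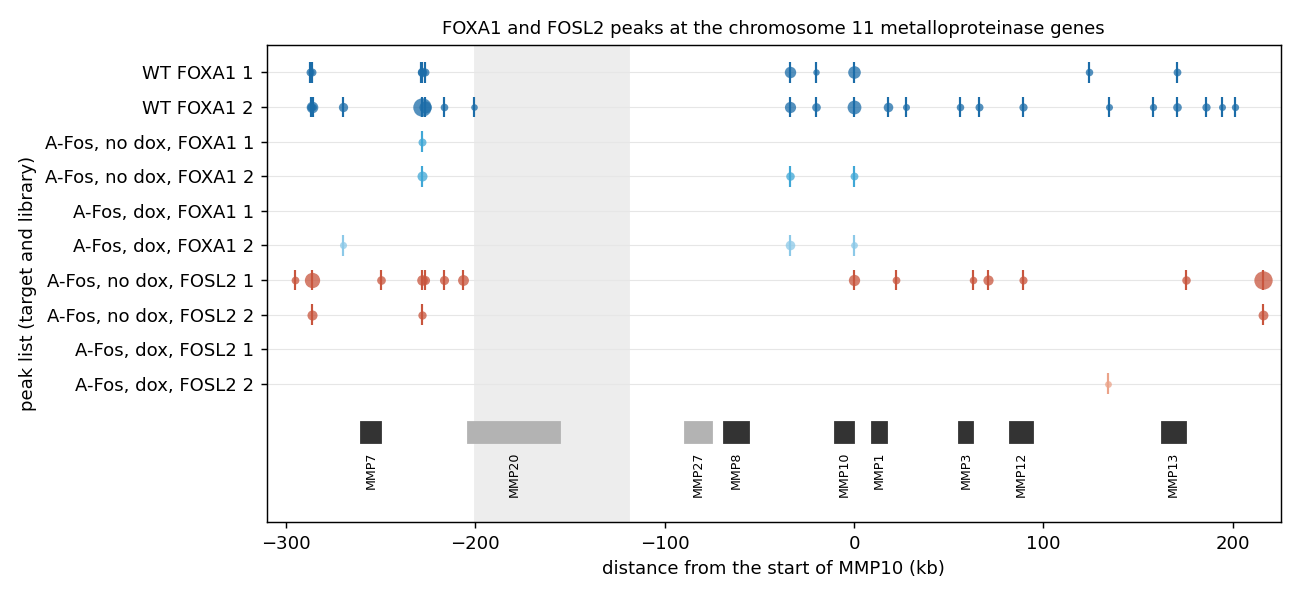
Summits of FOXA1 and FOSL2 peaks along the chromosome 11 cluster, as distance in kb from the start of MMP10, with 1 row per list; point area grows with fold enrichment, dark boxes are member genes, pale boxes MMP20 and MMP27, and the shaded stretch lies outside the windows. FOSL2 marks fill the first row without doxycycline, recur at 3 places in the second, and are reduced to 1 mark between MMP12 and MMP13 with doxycycline.

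FOXA1 was called around every member in WT cells, and 9 of the 41 regions lay inside a member gene. The WT libraries had 21 and 39 FOXA1 peaks in the windows, or 26.2 and 48.7 per Mb against 19.3 and 33.4 per Mb for all protein-coding genes. Merged, they gave 41 regions, of which 18 were called in both libraries, 21 in the second alone and 2 in the first alone. A peak lay within 50 kb of 9 members in the first library, all but MMP3 (78.4% of all genes), and of all 10 in the second (86.3%). A region of both libraries lay within 50 kb of 8, all but MMP3 and MMP12 (71.6% of all genes). These shares were near the background. The median number of peaks per gene was 3 and 5.5 over the members against 2 and 4 over all genes, where neighbours in the cluster share peaks.

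By mean percentile over the WT libraries, the strongest FOXA1 region of both lay 23.2 kb beyond MMP14 (chromosome 14, 22870926 to 22871807). This region lay beside LRP10, a lipoprotein receptor family gene, and only its peak of the second library reached over the lower end of LRP10. It had 14.4-fold and 66.6-fold enrichment (88.3 and 97.9 percentiles), although in the first library the MMP10 region described next stood higher. Among the other regions of both libraries, that 21.3 kb from MMP7 (chromosome 11, 102552066 to 102553094) had 8.55-fold and 39.4-fold (75.5 and 95.2 percentiles), and 1 in SLC7A7 39.8 kb from MMP14 (22796292 to 22796823) had 10.4-fold and 21.9-fold (81.4 and 90.1 percentiles). These 3 regions stood higher in the second library than in the first, where the regions of MMP8 and MMP2 given below also stood above that of MMP7.

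MMP10 was the member with FOXA1 directly over its start in both WT libraries. Its region (chromosome 11, 102780494 to 102781321) had 17.1-fold and 21-fold enrichment (90.7 and 89.7 percentiles), with summits 218 and 238 bases before the start. The TATTTAC match shown above lay 24 and 4 bases from these summits. At MMP10 only the bases shown were searched. The match lies near their far edge, and the FOXA1 region runs on to 102781321, which was not searched. Forkhead words also occurred without a peak over them. MMP27 holds TGTTTAC at -151 to -145 from its start and MMP20 holds TATTTAC at -215 to -209, and no peak held either. Besides MMP10, MMP2 was the other member with a FOXA1 peak within 1 kb of an end in the first WT library (2 of 10 members, 14% of all genes). In the second library these were MMP10, MMP1, MMP3 and MMP2 (4 of 10, 33.4% of all genes). The MMP1 peak began 0.053 kb beyond the end of the gene at the higher coordinate and had 8.89-fold enrichment (73.6 percentile), and that of MMP3 lay at the opposite end, at 4.56-fold (41.7 percentile).

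The strongest region of MMP2 lay 7.07 kb below it (chromosome 16, 55471233 to 55471763), with 11.5-fold and 12.3-fold (83.8 and 81.4 percentiles), and overlapped its strong FOSL2 site of the first library. Inside genes, MMP2 held FOXA1 regions of both WT libraries near its lower end (5.07-fold and 12.3-fold), in its body (5.61-fold and 9.57-fold) and towards its higher end (3.49-fold and 3.8-fold). MMP13 held 1 (5.07-fold and 6.84-fold) and MMP9 held 1 (5.92-fold and 7.48-fold). MMP8 had its nearest region of both libraries 21.9 kb away, between MMP8 and MMP10 (chromosome 11, 102746855 to 102747573), with 13.6-fold and 13-fold (87.3 and 82.5 percentiles). The FOXA1 peaks nearest MMP1, MMP3 and MMP12 were of 1 library alone: besides those named, 1 lay 2.58 kb from MMP3 (5.47-fold, 53.8 percentile) and 1 inside MMP12 (5.93-fold, 58.1 percentile), both in the second.

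Few of these FOXA1 sites were called in the A-Fos line. The untreated A-Fos libraries had 2 and 4 FOXA1 peaks in the windows, against 21 and 39 in WT cells, or 3 ± 1.41 against 30 ± 12.7 (mean ± SD, n = 2 each; exact two-sided permutation p = 0.33, the smallest possible). The groups did not overlap, and per 1000 peaks of the list the counts were 0.262 and 0.302 against 0.425 and 0.486. With all lists cut to the 7633 strongest peaks, the difference of the means moved from -27 to -0.5 peaks (exact two-sided permutation p = 1), so list length moved with the count, and line and list length cannot be told apart. Of the 18 WT regions of both libraries, 4 (22.2%) were called in any A-Fos FOXA1 list, against 44.4% of all such WT regions. Those 4 were the regions 21.3 kb from MMP7, at the start of MMP10, between MMP8 and MMP10, and beside LRP10 beyond MMP14.

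**Figure D3:**
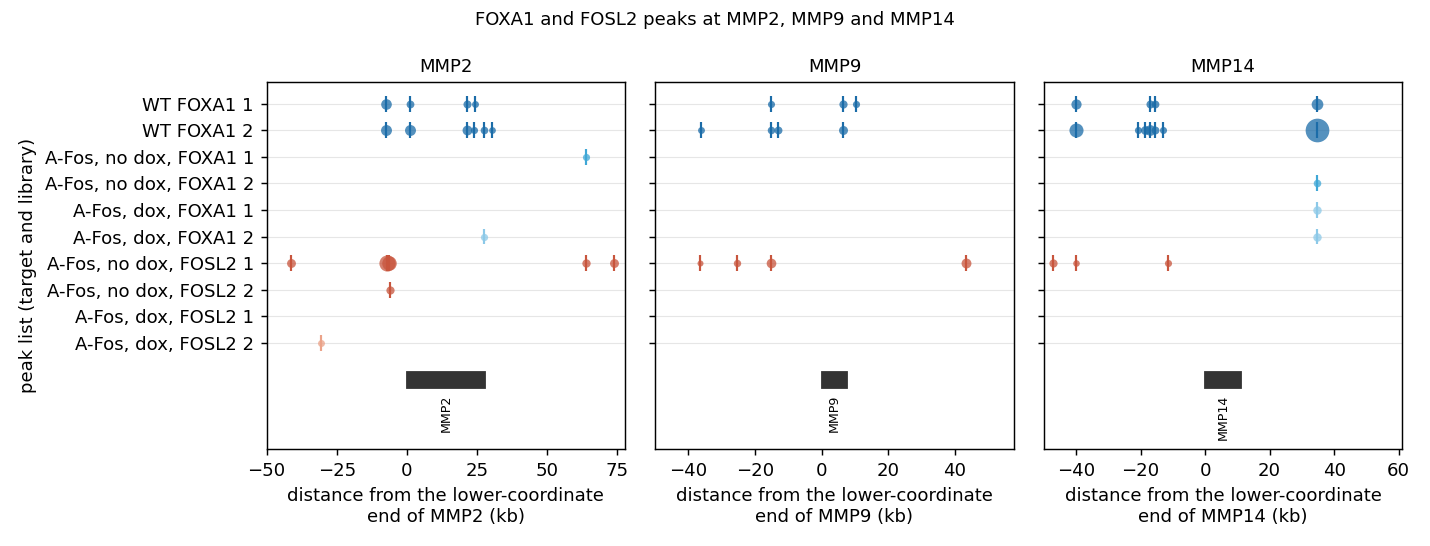
Summits of FOXA1 and FOSL2 peaks around MMP2, MMP9 and MMP14, as distance in kb from the end of the gene at the lower coordinate, with 1 row per list; point area grows with fold enrichment and the dark box is the gene. The WT FOXA1 and the first untreated FOSL2 rows hold marks at all 3 genes, MMP9 has none in the other rows, and the site beside LRP10, 23.2 kb beyond MMP14, recurs in 3 of the 4 A-Fos FOXA1 rows.

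FOXA1 peak numbers near the metalloproteinase genes overlapped between untreated and doxycycline-treated A-Fos cells. They were 2 and 4 without and 1 and 5 with it, both 3 on average (SD 1.41 and 2.83, n = 2 each; exact two-sided permutation p = 1). The A-Fos lists gave 7 FOXA1 regions, 6 of which overlapped a WT region. One region was called in both untreated libraries, and it was lost, being called in neither library with doxycycline: that 21.7 kb from MMP7 (chromosome 11, 102552442 to 102552884), at 5.44-fold and 9.9-fold (45.3 and 73.6 percentiles). On all chromosomes 31.1% of the 6012 regions called in both untreated libraries were lost and 53.3% were called in all 4. A single region allows no share to be compared with these. MMP7 was thus the 1 of 10 members with a lost FOXA1 region (8.97% of all genes). No member had a kept one (14.6%) or a gained one (6.92%, where 21.8% of the 5862 regions of both treated libraries were gained). Members with any FOXA1 peak within 50 kb were 2 and 5 of 10 without (26.2% and 37.7% of all genes) and 1 and 6 with doxycycline (35.6% and 38.2%). In the second library of each condition MMP8, MMP10 and MMP1 shared peaks, so these members are not separate counts.

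The remaining 6 FOXA1 regions were called in other combinations. The region beside LRP10 beyond MMP14 was called in the second untreated library (4.65-fold, 25 percentile) and in both with doxycycline (6.34-fold and 6.33-fold, 73.1 and 67.3 percentiles). None of these peaks reached into LRP10. The MMP10 start was called in the second library of each condition, at 5.16-fold without and 3.36-fold with doxycycline (33.3 and 21.1 percentiles). The summits lay 118 and 148 bases before the start, against 218 and 238 in WT cells, and so further from the TATTTAC match. The site between MMP8 and MMP10 was also called in the second library of each, at 6.54-fold and 8.9-fold (51.7 and 82.1 percentiles). Both were thus called in 1 library of each condition. A FOXA1 peak within 1 kb of an end was called for 0 and 1 of 10 members without doxycycline (1.16% and 2.25% of all genes) and for 0 and 2 with it (2.12% and 2.29%), these being MMP10 and, with doxycycline, MMP2. A site 9.38 kb from MMP7 (3.76-fold) and one at the higher end of MMP2 (4.05-fold) were called only in the second library with doxycycline. One inside LPCAT2, 35.6 kb from MMP2 (3.89-fold), was called only in the first untreated library.

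FOXA1 and FOSL2 sites met at 10 places in the windows when a call in any WT FOXA1 and any untreated FOSL2 library was counted. These held 10 of the 26 FOSL2 regions (38.5%), near the 40.3% on all chromosomes. For FOSL2 regions of both untreated libraries it was 2 of 4 (50%), against 72.5% on all chromosomes. At each place the summit of the stronger WT FOXA1 library was set against the nearest FOSL2 summit, and these lay 0 to 251 bases apart, with a median of 71.5. Of these, 4 lay around MMP7, 2 near MMP9, and 1 each at MMP10, MMP12, MMP14 and MMP2. Among the 18 WT regions of both libraries, 7 overlapped a FOSL2 peak of at least 1 untreated library (33.5% of all such WT regions did) and 2 overlapped a FOSL2 region of both (13.5% did). The 2 lay around MMP7, 25.9 and 21.3 kb away. At the latter the WT FOXA1 and FOSL2 summits lay 0 to 10 bases apart over the 4 pairs of libraries. At the site 14.8 kb below MMP9, where FOSL2 was called in the first library alone, they lay 49 bases apart for the first WT library and 0 for the second. At the MMP7 region both factors were called in both untreated A-Fos libraries and in none with doxycycline. At the region 25.9 kb from MMP7, FOXA1 had 5.34-fold and 14.1-fold enrichment in WT cells (51.4 and 84 percentiles), and no A-Fos library had a FOXA1 call. WT and A-Fos cells are different cultures, so these overlaps compare positions and not the same cells.

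Of the repressive marks, only H3K27me3 covered a member widely. MMP9 (chromosome 20, 46008908 to 46016561) had 76.3% and 73.8% of its body under H3K27me3 peaks in the first and the second library, 75.1% ± 1.75 (SD, n = 2), and 70% under peaks of both, which placed it at the 98.1 percentile of all genes. A peak of 7819 bp in the first library (46006052 to 46013870, 5.62-fold, 92.2 percentile) and one of 7663 bp in the second (46006198 to 46013860, 8.43-fold, 98.7 percentile) ran across its lower end. The 1 kb either side of that end was covered to 100% in both libraries, and that of the other end to 41.4% and 10%. MMP9 was the 1 of 10 members with at least 50% of the body under H3K27me3 in both libraries, which 4.23% of all genes had. The FOXA1 region inside MMP9 (46015059 to 46015406) lay beyond these peaks; it touched a shorter H3K27me3 peak of the second library (46014581 to 46015277) but none of the first.

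**Figure D4:**
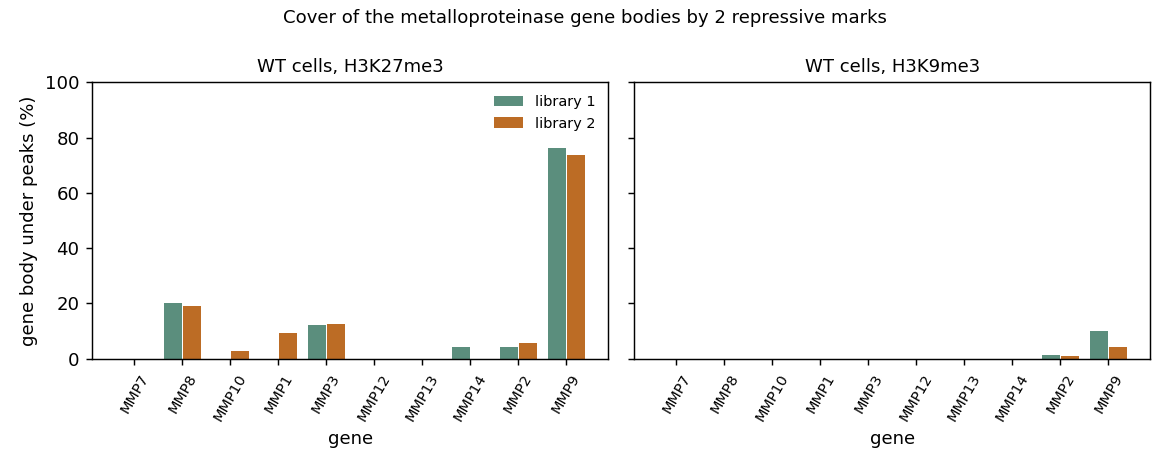
Percent of each member's gene body under H3K27me3 (left) and H3K9me3 (right) peaks in each WT library (1 bar per library). MMP9 stands at 76.3% and 73.8% for H3K27me3, MMP8 at 20% and 18.9%, and no H3K9me3 bar exceeds 10.1%.

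Short H3K27me3 peaks lay in other members. MMP8 had 20% and 18.9% of its body covered (12.7% in both), the longest peaks being 1471 and 1487 bp with 5.29-fold and 4.33-fold enrichment. MMP3 had 12.3% and 12.5%, but only 2.98% under peaks of both libraries, since the short peaks lay largely in different places. The 1 kb either side of its higher end was covered to 16.2% and 50% (12.9% in both). The shared stretch there overlapped the FOSL2 peak of the first untreated A-Fos library. It was the 1 of 26 FOSL2 regions of at least 1 untreated library that met shared H3K27me3 (3759 of 50138 on all chromosomes). MMP2 had 4.25% and 5.58% (1.69% in both). Its FOXA1 region near the lower end was the 1 of 18 WT regions of both libraries that overlapped H3K27me3 shared by both (1154 of 35739 on all chromosomes). For shared H3K9me3 it was 0 of 18 (698 of 35739). A single region allows no share to be compared with these. MMP1 (9.22%) and MMP10 (2.72%) were covered in the second library alone and MMP14 (4.08%) in the first alone. MMP7, MMP12 and MMP13 had no H3K27me3 peak in the body. Other ends were covered in 1 library alone: the lower end of MMP8 in the first (19.1%), and in the second the lower end of MMP2 (44%) and the higher ends of MMP12 (25.4%) and MMP1 (13%). In all, 4 of 10 members had any cover shared by both libraries (28.3% of all genes), and the median member had 0, as did the median gene.

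H3K9me3 was nearly absent from these genes. MMP9 had 10.1% and 4.34% of its body covered (4.34% in both, 3.02-fold and 3.32-fold at most) and MMP2 had 1.36% and 1.04% at different places. The other members had no H3K9me3 peak in the body, and the 1 kb either side of a member's end held one only below MMP8, in the first library (10.7%). No member reached 50% cover in both libraries (1.97% of all genes did), and 1 of 10 had any shared cover (36.8% of all genes). A longer gene body has more room for any cover, and gene length was not matched in these shares for either mark. Over the whole windows, the cover shared by both libraries was 1.81% for H3K9me3 and 7.12% for H3K27me3, against 3.36% and 5.75% in the windows of all protein-coding genes. The shared H3K27me3 cover was uneven. It was 41.6% in the window of MMP9, 7.04% in that of MMP2 and at most 2.06% in that of any other member. The 7.12% is thus no trait of the members as a set.

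The other metalloproteinase genes and the inhibitors TIMP1, TIMP2, TIMP3, TIMP4 and RECK, 18 genes in all, were read the same way. A FOSL2 region of both untreated libraries lay within 50 kb of 7 of 18 (38.9% of all genes had one): MMP17, MMP20, MMP24, MMP25, TIMP2, TIMP4 and RECK. A lost FOSL2 region lay near the same number, 7 of 18 (38.6% of all genes), and a kept one near 0 (0.0401% of all genes). A lost FOXA1 region lay within 50 kb of MMP20, TIMP2, TIMP4 and RECK, 4 of 18 (8.97% of all genes), and a kept one near MMP20 and MMP24, 2 of 18 (14.6% of all genes). The lost FOSL2 and FOXA1 regions counted for MMP20, the enamel protease gene next to MMP7, include those 21.4 kb and 21.7 kb from MMP7. None of the 18 genes reached 50% cover by either mark in both libraries.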

How the data were processed

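One peak list per library was deposited, 14 lists for 17 samples, and the 3 inputs were not analysed here. The deposited columns are each peak's position and summit, its enrichment as a linear ratio, and -log10 values of p and q. In the deposited lists -log10 q began at about 1.3, a q-value of 0.05. The submitters' processing notes name hg38 and, without order or settings, MACS2, deepTools, SAMtools 1.8, BWA 2.2.1, fastp 0.23.2 and DRAGEN. Read counts are not in the lists, so no depth or counting interval is given.

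Chromosomes 1 to 22 and X were used, with gene intervals from RefSeq GRCh38.p14 that carry no strand or exons, so exons and introns were not told apart. Peaks sharing at least 1 bp were joined into regions. Lost regions had a call in both untreated A-Fos libraries and in no treated one, gained regions the reverse, and kept regions a call in each of the 4. Mark cover is the percent of a gene body, or of 1 kb either side of an end, lying under peaks. Distances run from a region to the gene interval. Peak numbers were compared over libraries by exact two-sided permutation tests, and p-values measure only the spread between these libraries. Counts of regions and genes were read against all protein-coding genes or all regions, with no test. Python 3.11.15 was used, and the functions were tested on simulated data. All members were named, each with its region of highest mean percentile per factor and every lost, kept or gained region; members, lists and motifs were chosen with earlier results of these data known. Alternatives were windows of 10 and 100 kb, the stronger 50% of each list, lists of equal length, 100 bp either side of summits, other cover limits, a replicate block, and each library left out.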

Additional observations from a re-analysis of the deposited data

How the results depend on the processing

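Each of the 9 results was recomputed under other settings, 73 in all. A difference was labelled the same if it kept its sign or stayed at 0, and a count if it stayed close. By these rules 50 settings were the same and 23 moved. Only a difference other than 0 could reverse, so the counts and the FOXA1 difference by doxycycline could not. The differences in FOSL2 peaks by doxycycline and in FOXA1 peaks between WT and A-Fos cells kept their sign throughout but not their size. They were -14 and -27 as reported, -5 and -12.5 at 10 kb, -19.5 and -41 at 100 kb, -9.5 and -16.5 in the stronger 50% of each list, -1.5 and -0.5 with equal lengths, and from -3 to -25 and from -18 to -36 with libraries left out. The FOXA1 difference by doxycycline, 0, was 1 at 10 kb, -1 at 100 kb, 0.5 in the stronger 50% of each list, -0.5 with equal lengths, and -2 to 2 with libraries left out, so it has no direction. Lost FOSL2 regions, 4, were 1 at 10 kb and 1 with equal lengths, and 4 to 26 with libraries left out, where 26 is without the second untreated library. Lost FOXA1 regions, 1, were 0 at 10 kb, 2 at 100 kb, 0 in the stronger 50% and 1 to 2 with libraries left out (2 without the second untreated library). Kept FOXA1 regions, 0, were 2 at 100 kb and 0 to 1 with libraries left out (1 without the first untreated library). WT FOXA1 regions of both libraries, 18, were 8 at 10 kb, 32 at 100 kb and 21 to 39 with 1 library. Members covered by H3K27me3, 1, were 4 with any cover and 0 at 90%; those covered by H3K9me3, 0, were 1 with any cover. These counts follow from the smaller or larger window, list or limit. With a replicate block pairing equal library numbers, the differences stayed at -14, 0 and -27 and the exact permutation p became 0.5, 1 and 0.5, where 2 pairs allow no p below 0.5. Calls of equally numbered libraries deviated together weakly, with correlations over regions of 0.16 for FOSL2 and 0.02 for FOXA1, and nothing in the labels ties the numbers to shared cultures. Read depth is unknown, so an uncalled site is not an unbound one.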

Other observations

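Of the 18 other metalloproteinase and inhibitor genes, the 7 with a FOSL2 region of both untreated libraries within 50 kb had the following values. MMP24, a membrane-type metalloproteinase, had 12 and 3 FOSL2 peaks in the untreated libraries and 0 in both with doxycycline, 10 WT FOXA1 regions of both libraries, and 1 kept FOXA1 region. MMP20 had 7 and 2 FOSL2 peaks without and 0 with doxycycline and 5 WT FOXA1 regions of both libraries, some of them shared with MMP7. MMP17 had 3 and 2 FOSL2 peaks without and 0 with doxycycline and 4 such WT regions, and MMP25 had 4 and 2 without, 0 with it, and 2 such WT regions. TIMP2 had 9 and 1 FOSL2 peaks without and 0 with doxycycline, and 1 and 2 FOXA1 peaks in the untreated against 0 in both treated libraries. TIMP4 had 7 and 2 FOSL2 peaks without and 0 and 1 with doxycycline, and 2 FOXA1 peaks in each untreated against 0 in both treated libraries. RECK, a membrane-anchored inhibitor, had 6 and 2 FOSL2 peaks without and 0 with doxycycline, and 1 and 3 FOXA1 peaks in the untreated against 2 and 1 in the treated libraries. The median over all genes was 2 and 0 FOSL2 peaks in the untreated libraries and 0 in both with doxycycline. For FOXA1 it was 0 in every A-Fos list, and 8.97% of all genes had a lost FOXA1 region within 50 kb. These 7 genes were picked by their untreated FOSL2 calls, so fewer calls with doxycycline are no result about them. MMP26 and TIMP3, not among them, had a FOSL2 peak only with doxycycline, 1 each in the second library. Longer genes have longer windows, so the numbers are not comparable between genes. TIMP3 was the most H3K27me3-covered of the 18, with 35.8% and 53.7% of its body under peaks and 28.9% under peaks of both libraries. No test was run on these genes.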
